A study of Mus musculus with 9 samples.

Results

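The genes described here encode voltage-gated sodium, potassium and calcium channels and their relatives. They were taken by name: every gene symbol of the 2 expression tables that starts with Kcn or Cacn, or with Scn followed by a digit, leaving out Kcnk1. This gave 40 of the 12388 gene symbols found in either table. All 40 are in the table that compares mutant with heterozygote retinas (12247 symbols), and 34 of them are in the table that compares knock-in with mutant retinas (11989 symbols). In the GENCODE annotation of mm10, 133 protein-coding genes carry these prefixes, and 38 of them are among the 40; the others were not analysed here. Rows reach the tables only above a low level: the smallest value seen in the higher group of any row was 0.906 RPKM in the first table and 1.04 RPKM in the second. RPKM is read density scaled by transcript length and by the number of mapped reads.

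RNA came from E12.5 retinas of the CD-1 strain of mouse, with 3 samples in each of 3 groups set by the alleles at Neurog2, a proneural basic helix-loop-helix gene. KI retinas had one GFP allele and one knock-in allele, MUT retinas (Neurog2GFP/GFP) had GFP at both alleles, and HET retinas (Neurog2GFP/+) had GFP at one allele beside a wild-type allele. All 3 groups thus carry at least one GFP allele, and no group is wild type. Pairs of GFP-positive optic cups were dissociated, and no sort of cells is named, so each value averages over the cells of the cup. Whether samples came from different litters is not stated, and the p-values measure only the spread between these samples.

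Voltage-gated channels open when the membrane depolarises. Sodium channels carry the rising phase of the action potential, potassium channels bring the membrane back and set its firing pattern, and calcium channels turn electrical activity into calcium entry and transmitter release. The pore subunits work with auxiliary subunits that change their trafficking and gating. At the start of retinal neurogenesis most cells are dividing progenitors, and the first ganglion cells, the neurons that send axons to the brain, are beginning to become excitable. By name the 40 genes are wider than voltage-gated channels alone. Voltage-gated and calcium-activated channels with their subunits make up 28 of them. Another 3 are calcium channel gamma genes, of which Cacng4, Cacng7 and Cacng8 are best known as partners of AMPA-type glutamate receptors. Inward rectifiers and two-pore-domain channels, which have no voltage sensor, add 3 genes each. The last 3 symbols encode no channel subunit: Kcnq1ot1 is a long non-coding RNA, Kcnmb4os1 an antisense RNA and Kcnrg a regulator of channel assembly.

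The tables hold one value per transcript and group and none per sample, which leaves replicate spread and depth per sample unknown. Summed RPKM below adds the listed transcripts of a gene. Neurog2 was at 36.2 RPKM in MUT and 30.2 RPKM in HET retinas (p = 0.081, q = 0.993 in the authors' deposited table) and at 112 RPKM in KI against 35.5 RPKM in MUT retinas. Coding and untranslated signal are not separated, so these values do not check the alleles, and MUT, KI and HET below mean the groups so labelled. Pax6, a factor that defines the early retina, was between 291 and 339 RPKM in every group. Sex-linked genes differed in listed level, none of them called: Xist was at 505 RPKM in MUT and 184 RPKM in HET retinas, and Eif2s3y, on the Y chromosome, was listed at 0 in MUT and at 21.9 RPKM in HET retinas. Kdm5d, Ddx3y and Uty, also on the Y chromosome, were at 0, 0.0104 and 0.0168 RPKM in MUT retinas. In HET retinas they were at 12.8, 4.6 and 3.5 RPKM. In the second table Eif2s3y was at 28.6 RPKM in KI retinas and again listed at 0 in MUT retinas. There Kdm5d, Ddx3y and Uty were at 19.3, 8.81 and 9.44 RPKM in KI retinas and again at or near 0 in MUT retinas. Xist was at 174 RPKM in KI and 496 RPKM in MUT retinas. Y-linked values were thus at or near 0 in MUT retinas only. A part of the makeup by sex in the channel values was not tested and cannot be told apart from the MUT label.

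Channel genes were weakly expressed in these retinas. The median of their mean summed RPKM was 1.96 in the first table, against 14.1 over all genes, and 32 of 40 (80%) were under 5 RPKM, against 24.9% of all genes. The most abundant were 3 auxiliary genes. Cacng7 stood at 38.7 RPKM in MUT and 36.2 RPKM in HET retinas, Cacng4 at 21.6 RPKM in MUT and 24.4 RPKM in HET retinas, and Cacnb3, a beta subunit that brings calcium channel pores to the membrane, at 20.8 RPKM in MUT and 23.3 RPKM in HET retinas. Only Cacna1d, the pore of an L-type calcium channel, and Kcnh2, the pore of the erg-type potassium channel, were above 5 RPKM in both groups among the pore subunits of voltage-gated channels. The genes were also long. Their median span on the genome was 64.0 kb, against 23.8 kb over the 11822 genes of the table with an annotated span, and Kcnip4 spanned 1135 kb.

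**Figure D1:**
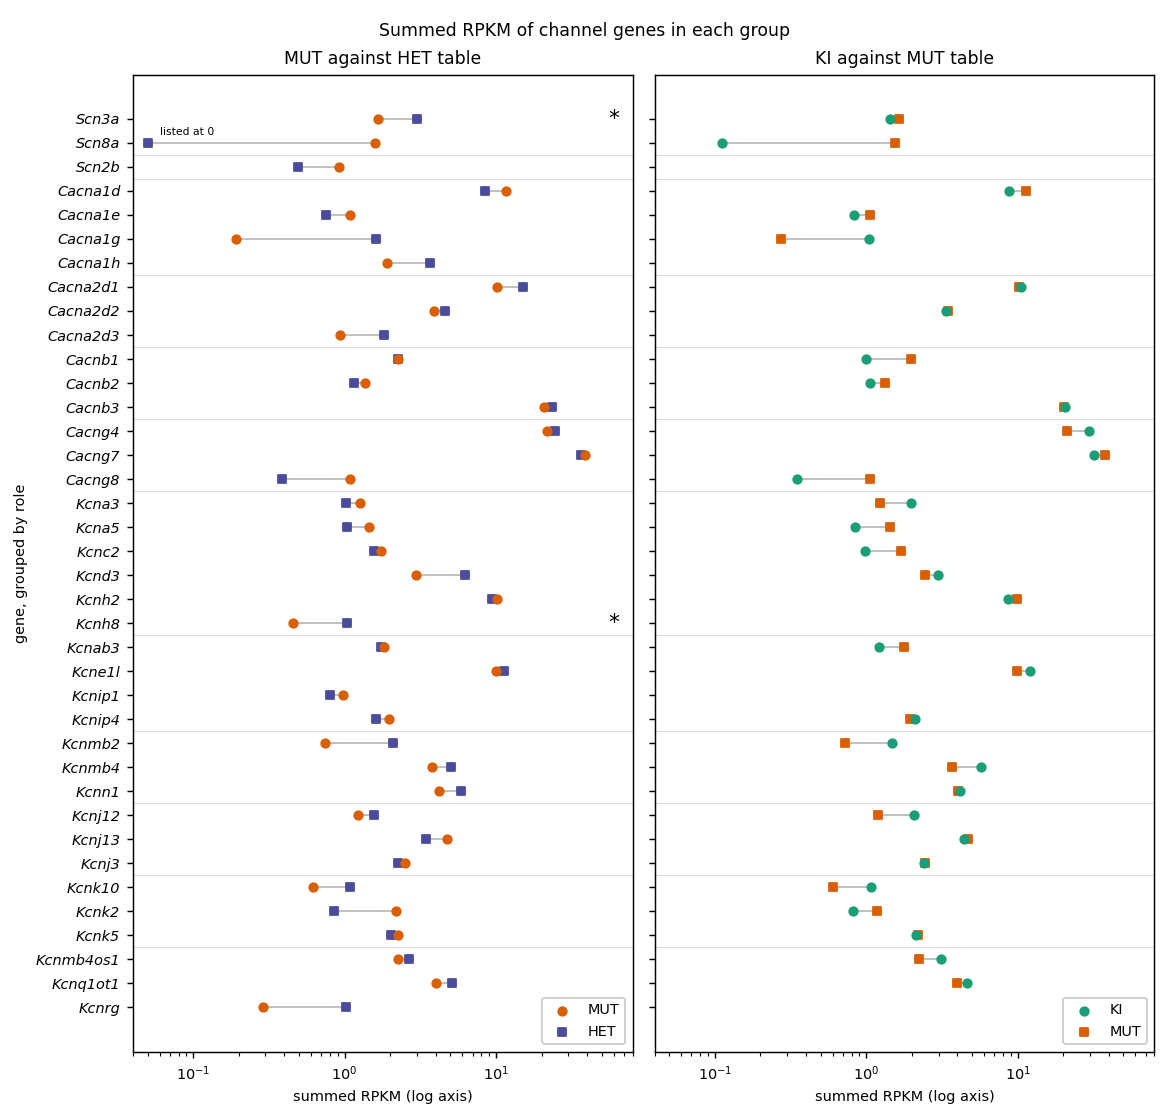
Summed RPKM (log axis) of 38 of the channel genes, grouped by role, in MUT (circles) and HET (squares) retinas on the left and in KI (circles) and MUT (squares) retinas on the right. Stars mark the 2 genes with a called transcript, Scn3a and Kcnh8; most genes sit near 1 to 5 RPKM, and Scn8a, listed at 0 in HET retinas, is drawn at the left edge.

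The comparison of MUT with HET retinas asks what the loss of the remaining intact Neurog2 allele does to these genes. A sodium and a potassium channel pore gene fell, and the sums of the set as a whole were split. Scn3a, a sodium channel pore typical of embryonic and newborn neurons, fell to 1.67 RPKM in MUT retinas, against 2.99 RPKM in HET retinas, a ratio of 0.56 (log2 ratio -0.84; p = 5e-05, q = 0.0109 in the authors' deposited table). Kcnh8, a slowly gating potassium channel pore of the elk type, fell to 0.457 RPKM in MUT, against 1.04 RPKM in HET retinas (log2 ratio -1.18; p = 0.00025, q = 0.0424 in the authors' deposited table). Both genes have a single listed transcript, so the call and the gene's sum are the same quantity. A gene counts as called where one of its transcripts has a q of 0.05 or less in that table, and lower calls were 2 of 40 channel genes (5.0%), against 1.09% of all genes. Higher calls were 0 of 40, against 0.245% of all genes. Over the 34 channel genes that are in both tables, 1 was called lower, since Kcnh8 is listed in the first table through its HET value and is not in the second. The shares of all genes above are for the whole first table, and none over genes in both tables is given here. Among genes under 5 RPKM in this table, 1.44% were called lower, and both called channel genes are in that band.

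With no adjustment, at p under 0.05 in the authors' deposited table, 9 of 40 channel genes (22.5%) were lower in MUT retinas, against 6.2% of all genes. One channel gene was higher at that limit (2.5%, against 4.85% of all genes). Over the 34 channel genes that are in both tables, 7 were lower and 1 was higher. No share of all genes that are in both tables is given beside these counts, so they cannot be set against a like background. Kcnh8 and Kcnk10 had MUT values under 0.906 RPKM, the lowest level of the higher group, so both were listed through their HET values. The higher gene, Cacna1e, had a HET value under that level and was listed through its MUT value. These counts rest on single tests that did not pass the adjustment, apart from Scn3a and Kcnh8. Summed values were lower in MUT retinas for 21 channel genes and higher for 19. Their median log2 ratio was -0.17, beside 0.03 over all genes, with a range of -3.07 to 1.49. Scn8a, listed at 0 in HET retinas, has no ratio and enters neither the median nor the range. The sign of this median is not firm: it was 0.021 without the 3 symbols that encode no channel subunit and -0.014 over the genes that are in both tables. With a pseudocount of 0.1 RPKM, which gives Scn8a a ratio, it was -0.09. Neuronal marker genes lay on one side: all 17 measured pan-neuronal genes had lower sums and 11 were called (median log2 ratio -1.03), and all 13 ganglion cell genes had lower sums and 7 were called (median -0.97). Of 10 genes of photoreceptor, horizontal and amacrine precursors, 9 had lower sums and 3 were called (median -0.69). Of 16 progenitor genes, 14 had higher sums and none was called, with 4 higher and 1 lower at an unadjusted p under 0.05 (median 0.24). The summed level of that pan-neuronal list was 609 RPKM in MUT and 1197 RPKM in HET retinas. In whole cups, fewer neurons and less RNA per neuron cannot be told apart.

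**Figure D2:**
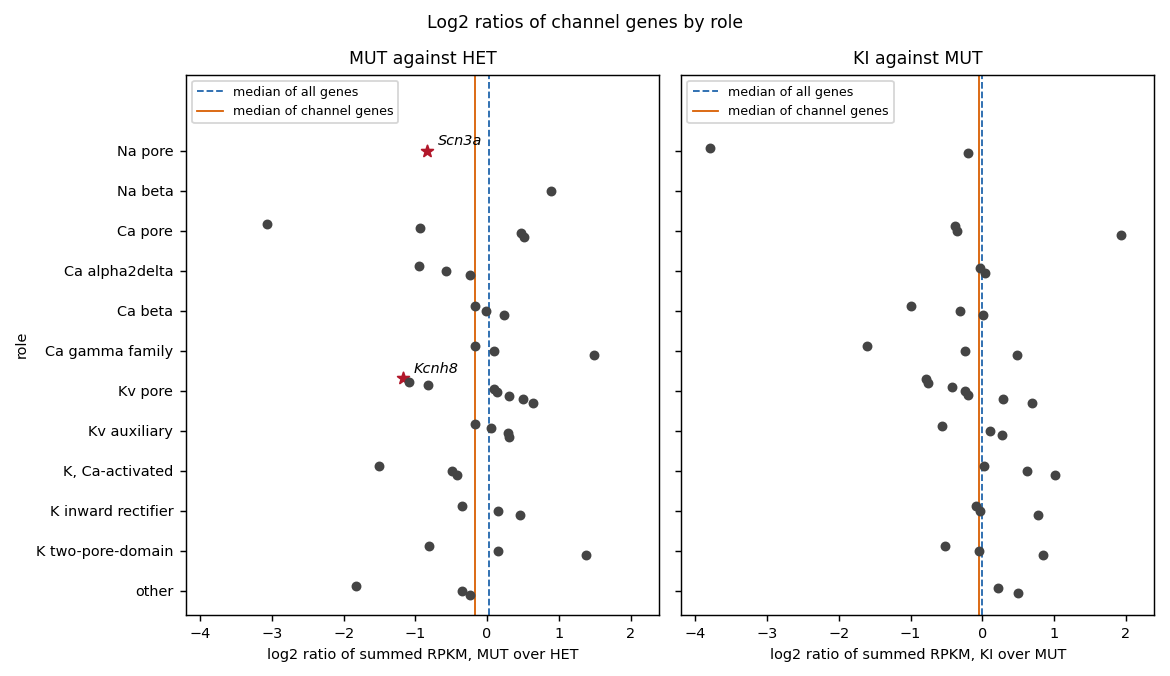
Log2 ratio of summed RPKM for channel genes above 0 in both groups (one point a gene), by role, with MUT over HET on the left and KI over MUT on the right. Lines are the medians of all genes (dashed) and of channel genes (solid). Scn8a, listed at 0 in HET retinas, has no point on the left, and the 6 genes in the first table only have none on the right. In the left panel the channel median of -0.17 lies near the all-gene median of 0.03, with Scn3a and Kcnh8 (stars) as the only called genes; the right panel has no called gene.

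Among the pores of voltage-gated potassium channels, 8 genes were measured and 3 had lower sums. Kcnh8 and Kcnd3 were among them. Kcnd3 makes the transient A-type current that delays firing, and its sum was 2.95 RPKM in MUT and 6.26 RPKM in HET retinas (log2 ratio -1.09). Its more abundant transcript had p = 0.0008 in the authors' deposited table and a q just above 0.10, so it was not called. Higher sums in MUT retinas, none of them called, included Kcnh2, Kcnc2, Kcna3 and Kcna5, with log2 ratios of 0.10 (Kcnh2), 0.14 (Kcnc2), 0.30 (Kcna3) and 0.49 (Kcna5). Sums within this one role thus stood on both sides of zero. At an unadjusted p under 0.05, 3 of the 8 genes were lower and none was higher.

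The promoters of the 3 genes with the smallest p among the lower ones that have an entry in the RefSeq promoter set (GRCm38.p6) are shown because Neurog2 and its relatives bind E-boxes, the 6-base motif CANNTG. Each run covers 250 bases before and 50 bases after a start site as RefSeq places it and reads 5′ to 3′ on the gene's strand. E-boxes are in capitals. Kcnh8 lies on the plus strand at chr17:52602459-52602758, Kcnd3 on the plus strand at chr3:105451640-105451939, and Cacna2d3 on the minus strand at chr14:29721815-29722114. The Kcnd3 run ends before the start of that gene in GENCODE (105452330).
Kcnh8: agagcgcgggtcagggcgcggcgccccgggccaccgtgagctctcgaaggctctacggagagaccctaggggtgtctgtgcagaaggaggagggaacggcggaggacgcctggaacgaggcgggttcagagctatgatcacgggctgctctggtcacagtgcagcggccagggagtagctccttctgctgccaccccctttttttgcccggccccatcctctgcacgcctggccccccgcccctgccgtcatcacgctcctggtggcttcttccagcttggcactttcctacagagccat
Kcnd3: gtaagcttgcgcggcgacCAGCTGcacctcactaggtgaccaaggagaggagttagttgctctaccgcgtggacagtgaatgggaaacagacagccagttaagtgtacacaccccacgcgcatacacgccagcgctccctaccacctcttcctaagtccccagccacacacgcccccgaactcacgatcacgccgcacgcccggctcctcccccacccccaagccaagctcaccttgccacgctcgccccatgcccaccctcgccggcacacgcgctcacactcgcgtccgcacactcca
Cacna2d3: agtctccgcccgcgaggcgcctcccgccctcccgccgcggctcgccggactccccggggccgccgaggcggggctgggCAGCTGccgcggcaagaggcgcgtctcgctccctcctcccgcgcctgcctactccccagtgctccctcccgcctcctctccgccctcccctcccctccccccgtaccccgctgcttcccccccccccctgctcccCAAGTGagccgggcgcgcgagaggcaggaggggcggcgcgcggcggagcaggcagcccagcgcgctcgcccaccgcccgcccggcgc

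The Kcnh8 run holds no E-box, the Kcnd3 run holds one CAGCTG, and the Cacna2d3 run holds one CAGCTG and one CAAGTG. Of the 40 channel genes, 32 have a promoter entry, 48 runs in all. In 39 of the 48, bases just after the start were found in a GENCODE transcript of the gene. CANNTG, read on both strands at once because it is its own reverse complement, was in 68.8% of the 32 genes, against 66.4% of the 9202 genes of the first table with an entry. The form CAGCTG was in 13 of the 32 (40.6%), against 17.6% of the 9202 genes and 18.3% of all 27025 genes with an entry. CAGATG with its complement CATCTG was in 25% of channel genes, against 13.2% of genes of the table. CATATG was in 3.12%, against 1.99%. These 3 forms are included in CANNTG. Channel genes had 1.5 runs a gene, some of them overlapping, against 1.28 for genes of the table, and a median GC content of 59.5%, against 61.0%. Among the 7 genes lower at an unadjusted p under 0.05 that have an entry, 3 hold CAGCTG, beside 13 of all 32 channel genes with an entry. A match of letters is not a bound site.

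No calcium channel gene was called. All 3 alpha2delta genes, whose products carry pores to the surface and stabilise them, had lower sums in MUT retinas, although the most abundant transcript of Cacna2d2 was higher (log2 ratio 0.83). Cacna2d3 was at 0.938 RPKM in MUT and 1.82 RPKM in HET retinas (log2 ratio -0.95; p = 0.00145, q = 0.147 in the authors' deposited table). Cacna2d1 summed to 10.2 RPKM in MUT and 15.1 RPKM in HET retinas (log2 ratio -0.57), and Cacna2d2 to 3.90 RPKM in MUT and 4.62 RPKM in HET retinas (log2 ratio -0.24). The 4 measured pores lay on both sides. Cacna1d was at 11.7 RPKM in MUT and 8.40 RPKM in HET retinas, and the R-type pore Cacna1e at 1.08 RPKM in MUT and 0.756 RPKM in HET retinas. Cacna1e was the one channel gene higher at an unadjusted p under 0.05 (p = 0.0104, q = 0.476 in the authors' deposited table). The T-type pores Cacna1g and Cacna1h, which open at low voltages, had lower listed values. Cacna1g was at 0.193 RPKM in MUT and 1.62 RPKM in HET retinas, the widest ratio among genes above 0 in both groups (log2 ratio -3.07), yet its test was far from the threshold (p = 0.325, q = 0.993 in the authors' deposited table). Cacna1h summed to 1.90 RPKM in MUT and 3.65 RPKM in HET retinas over 3 transcripts. The beta subunit genes Cacnb1, Cacnb2 and Cacnb3 stayed within log2 ratios of -0.17 and 0.24.

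Apart from Kcnh8, which was called, the wide ratios among weakly expressed channel genes did not pass the test. Cacng8 was at 1.08 RPKM in MUT and 0.384 RPKM in HET retinas (log2 ratio 1.49; p = 0.0992 in the authors' deposited table). Kcnk2, a mechanically gated leak channel, summed to 2.20 RPKM in MUT and 0.848 RPKM in HET retinas over 2 transcripts. Kcnmb2, a beta subunit of the large-conductance calcium-activated channel, was at 0.740 RPKM in MUT and 2.10 RPKM in HET retinas (p = 0.337 in the authors' deposited table). Scn8a, a sodium channel pore of mature axons, had one listed transcript, at 1.58 RPKM in MUT retinas and listed at 0 in HET retinas (p = 0.157 in the authors' deposited table). Scn2b, a sodium channel beta subunit, was at 0.915 RPKM in MUT and 0.492 RPKM in HET retinas, and Kcnrg at 0.288 RPKM in MUT and 1.03 RPKM in HET retinas. Over all genes under 5 RPKM, the log2 ratios of MUT over HET had an interquartile range of 0.63, against 0.32 for genes at 5 RPKM or more.

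**Figure D3:**
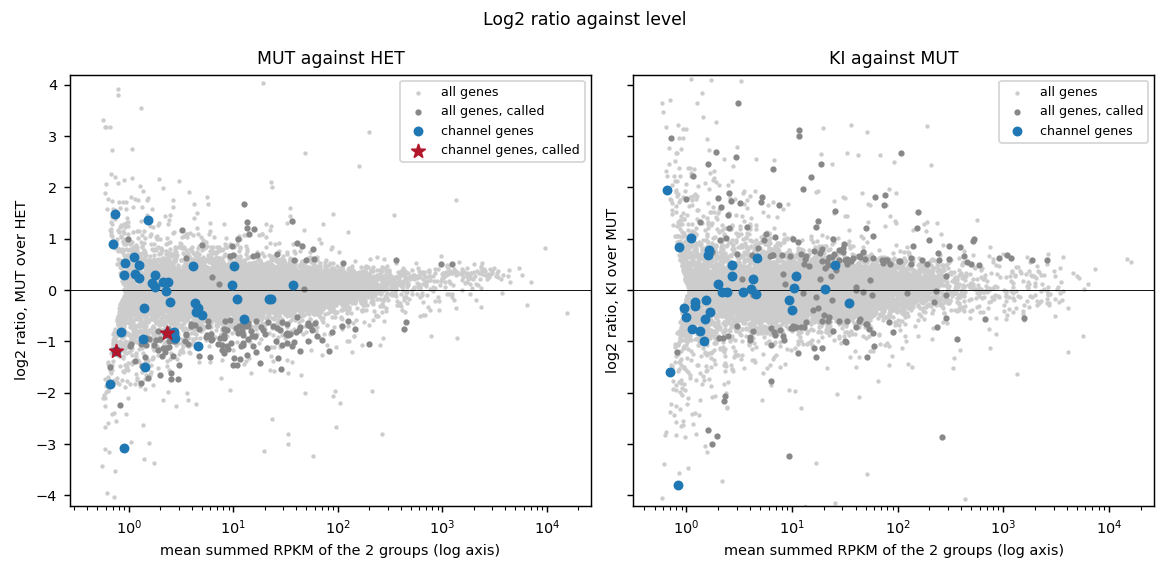
Log2 ratio against mean summed RPKM (log axis) for all genes (light grey), called genes (dark grey), channel genes (blue) and called channel genes (red stars), MUT over HET on the left and KI over MUT on the right. Channel genes lie mostly at the low end of the axis; 13 genes on the left and 30 on the right, none of them channel genes, lie beyond the vertical range of 4.2.

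All 3 calcium-activated potassium channel genes had lower sums in MUT retinas, and none was called. Beside Kcnmb2 they were Kcnn1 and Kcnmb4. Kcnmb2 had a MUT value under 0.906 RPKM, the lowest level of the higher group, so it was listed through its HET value. Kcnn1, a small-conductance calcium-activated channel that follows bursts of spikes with a slow afterhyperpolarisation, was at 4.2 RPKM in MUT and 5.89 RPKM in HET retinas (log2 ratio -0.49; p = 0.0112, q = 0.489 in the authors' deposited table). Kcnmb4, the neuronal beta subunit of the large-conductance channel, summed to 3.76 RPKM in MUT and 5.03 RPKM in HET retinas over 2 transcripts. Leak channels were on both sides of zero. Kcnk10, a leak channel related to Kcnk2, was at 0.615 RPKM in MUT and 1.08 RPKM in HET retinas (log2 ratio -0.81; p = 0.0205, q = 0.675 in the authors' deposited table). Kcnk5, a leak channel sensitive to pH, was at 2.24 RPKM in MUT and 2.01 RPKM in HET retinas. Of the inward rectifiers, Kcnj3, a pore opened by G proteins, was at 2.50 RPKM in MUT and 2.25 RPKM in HET retinas, and Kcnj12, a strong rectifier, at 1.22 RPKM in MUT and 1.55 RPKM in HET retinas. Kcnj13, the remaining one, summed to 4.75 RPKM in MUT and 3.45 RPKM in HET retinas. None of these differences passed the test. Auxiliary genes of voltage-gated potassium channels were not called: Kcne1l, on the X chromosome, was at 10.1 RPKM in MUT and 11.3 RPKM in HET retinas, and Kcnip4, a calcium-binding partner of A-type pores, at 1.97 RPKM in MUT and 1.60 RPKM in HET retinas. Kcnip1, of the same family, was at 0.983 RPKM in MUT and 0.797 RPKM in HET retinas, and the beta subunit gene Kcnab3 at 1.81 RPKM in MUT and 1.74 RPKM in HET retinas. The non-coding Kcnq1ot1 was at 4.02 RPKM in MUT and 5.12 RPKM in HET retinas (p = 0.018, q = 0.634 in the authors' deposited table).

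Several sums join transcripts of opposite sign. In MUT against HET retinas, 12 channel genes had more than 1 listed transcript, and in 5 of them (Cacna2d1, Cacna2d2, Cacnb1, Kcnh2 and Kcnj13) some transcripts were higher and others lower in MUT retinas. Cacna2d1 is one of them. Its most abundant transcript was at 3.31 RPKM in MUT and 6.24 RPKM in HET retinas (p = 0.0301, q = 0.794 in the authors' deposited table), a second one at 2.02 RPKM in MUT and 5.87 RPKM in HET retinas, and the next at 2.78 RPKM in MUT and 3.04 RPKM in HET retinas. The last one was at 2.10 RPKM in MUT and 0.00162 RPKM in HET retinas (p = 0.343 in the authors' deposited table). For Kcnh2 the main transcript was at 6.09 RPKM in MUT and 7.83 RPKM in HET retinas, while the 2 minor ones were higher in MUT retinas, so that its sum was 10.1 RPKM in MUT and 9.45 RPKM in HET retinas. No single transcript of these 5 genes was called.

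**Figure D4:**
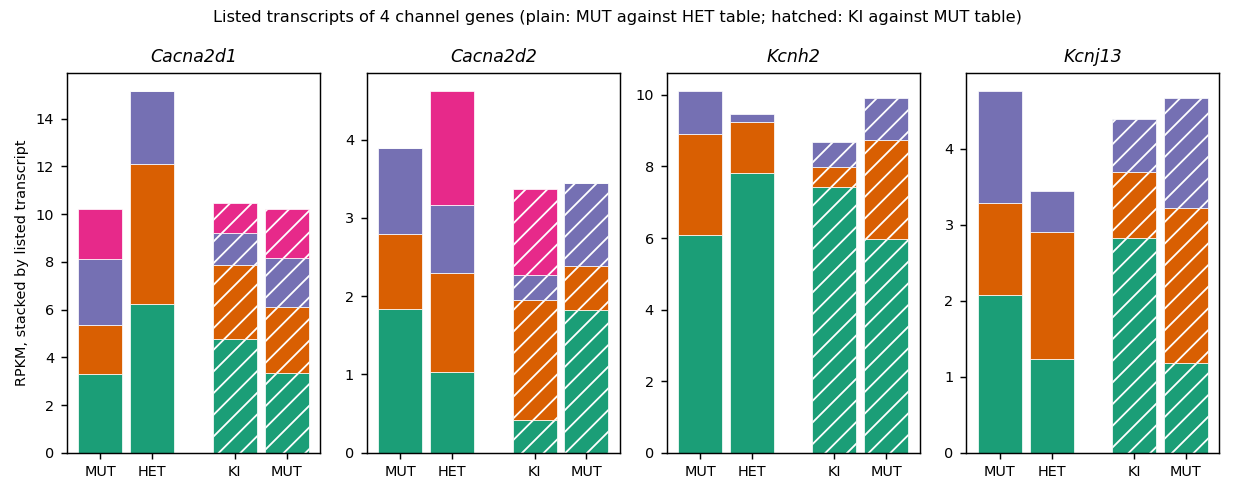
RPKM of the listed transcripts of Cacna2d1, Cacna2d2, Kcnh2 and Kcnj13, stacked, for MUT and HET (plain bars) and for KI and MUT (hatched bars). Colours rank transcripts by level within one table and need not mark the same transcript in the other; the Cacna2d1 stack is 10.2 RPKM in MUT and 15.1 RPKM in HET retinas, and 10.5 RPKM in KI and 10.2 RPKM in MUT retinas.

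Some loci are shared with other genes, and how the authors assigned reads by strand is not given in the sources used here. Exons of 17 of the 40 genes overlap exons of another annotated gene, and for 6 of them that other gene is protein-coding. Kcnj13, an inward rectifier of the pigment epithelium (chromosome 1, 87386363 to 87394729, minus strand), overlaps exons of Gigyf2 on the other strand, and Kcnmb4 and its antisense Kcnmb4os1 overlap each other on chromosome 10. The values of these genes are uncertain for that reason. Scn3a (chromosome 2, 65457118 to 65567627, minus strand) and Kcnh8 (chromosome 17, 52602709 to 52979194, plus strand) have no such overlap.

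The comparison of KI with MUT retinas asks what the knock-in allele does in retinas that lack an intact Neurog2 allele. No channel gene passed the test. Lower calls were 0 of 34, against 0.634% of all genes, and higher calls were 0 of 34, against 1.03% of all genes, by the authors' test with Cuffdiff, the only one the files hold. With no adjustment, at p under 0.05 in the authors' deposited table, there were 2 channel genes lower in KI retinas (5.88%, against 6.46% of all genes) and 1 higher (2.94%, against 8.56% of all genes). Sums were lower in KI retinas for 19 channel genes and higher for 15, and the median log2 ratio was -0.04, beside -0.0021 over all genes, with a range of -3.80 to 1.94. In the same table the median log2 ratio was 0.47 over 13 ganglion cell genes, of which 2 were called higher and none lower, and 0.33 over 17 pan-neuronal genes, of which none was called, with 7 higher and 1 lower at an unadjusted p under 0.05. Of 16 progenitor genes, Hes5, a target of Notch signalling, was called lower and none was called higher (median -0.04), and of 10 precursor genes 1 was called higher (median 0.26).

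The 2 lower genes were potassium channel pores. Both had KI values under 1.04 RPKM, the lowest level of the higher group, so both were listed through their MUT values. At those KI levels a gene could be listed only as lower. Kcnc2, a rapidly gating channel of fast-firing neurons, was at 0.980 RPKM in KI and 1.70 RPKM in MUT retinas (log2 ratio -0.79; p = 0.00075, q = 0.0767 in the authors' deposited table). Kcna5, a delayed rectifier, was at 0.844 RPKM in KI and 1.43 RPKM in MUT retinas (log2 ratio -0.76; p = 0.0178, q = 0.459 in the authors' deposited table). The higher one was Kcnk10, at 1.08 RPKM in KI and 0.604 RPKM in MUT retinas (log2 ratio 0.84; p = 0.0271, q = 0.556 in the authors' deposited table). The adjusted threshold was passed by none of the 3. Wide ratios again sat at low values: Scn8a was at 0.112 RPKM in KI and 1.56 RPKM in MUT retinas (p = 0.367 in the authors' deposited table), Cacng8 at 0.347 RPKM in KI and 1.06 RPKM in MUT retinas, and Cacna1g at 1.05 RPKM in KI and 0.273 RPKM in MUT retinas. The abundant auxiliary genes were not called either: Cacnb3 was at 20.6 RPKM in KI and 20.4 RPKM in MUT retinas, Cacng7 at 32.0 RPKM in KI and 37.9 RPKM in MUT retinas, and Cacng4 at 29.7 RPKM in KI and 21.2 RPKM in MUT retinas (p = 0.152 in the authors' deposited table).

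By role, the calcium-activated genes all had higher sums in KI retinas, none of them called. Kcnmb2 was at 1.47 RPKM in KI and 0.727 RPKM in MUT retinas, Kcnmb4 at 5.69 RPKM in KI and 3.69 RPKM in MUT retinas, and Kcnn1 at 4.13 RPKM in KI and 4.06 RPKM in MUT retinas. The MUT value of Kcnmb2 was under 1.04 RPKM, the lowest level of the higher group, so this gene could be listed only as higher. The 7 measured potassium pores had lower sums in 5 cases and higher sums in Kcnd3 and Kcna3, the delayed rectifier Kcna3 being at 1.99 RPKM in KI and 1.23 RPKM in MUT retinas. Kcnab3 was at 1.21 RPKM in KI and 1.78 RPKM in MUT retinas, and Kcnj12 at 2.05 RPKM in KI and 1.2 RPKM in MUT retinas. Pore genes of calcium channels gave 8.76 RPKM in KI and 11.4 RPKM in MUT retinas for Cacna1d, and 0.831 RPKM in KI and 1.06 RPKM in MUT retinas for Cacna1e. Of the alpha2delta genes, the sums of Cacna2d1 and Cacna2d2 differed by less than 0.05 on the log2 scale, but both join transcripts of opposite sign. The most abundant transcript was at 4.78 RPKM in KI and 3.34 RPKM in MUT retinas for Cacna2d1, and at 0.414 RPKM in KI and 1.82 RPKM in MUT retinas for Cacna2d2. Kcnh2, Kcnj13 and Kcnmb4 had such mixed transcripts too, and no transcript of these 5 genes was called. Cacnb1 was at 0.990 RPKM in KI and 1.98 RPKM in MUT retinas, from 1 listed transcript (p = 0.620 in the authors' deposited table). The antisense Kcnmb4os1 was at 3.14 RPKM in KI and 2.23 RPKM in MUT retinas, and at 2.27 RPKM in MUT and 2.68 RPKM in HET retinas.

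Several lists of other tissues were higher in the libraries labelled KI. All 9 measured pigment epithelium genes had higher sums in KI retinas and 6 were called, with a summed level of 92.7 RPKM in KI and 19.2 RPKM in MUT retinas and a median log2 ratio of 2.79. Lens genes summed to 138 RPKM in KI and 39.0 RPKM in MUT retinas (8 of 8 higher, 3 called, with Foxe3 listed at 0 in MUT retinas), blood genes to 128 RPKM in KI and 34.3 RPKM in MUT retinas (6 of 6 higher, 2 called), and mesenchyme genes to 33.4 RPKM in KI and 19.4 RPKM in MUT retinas (6 of 6 higher, 2 called). The 2 measured endothelium genes were lower in KI retinas and not called, with a sum of 24.0 RPKM in KI and 29.5 RPKM in MUT retinas. In MUT against HET retinas these 5 lists had no call. There pigment epithelium genes summed to 17.4 RPKM in MUT and 16.0 RPKM in HET retinas, and lens genes to 38.9 RPKM in MUT and 60.8 RPKM in HET retinas (5 of 6 lower, median log2 ratio -0.47). Blood genes summed to 33.9 RPKM in MUT and 29.4 RPKM in HET retinas, mesenchyme genes to 18.1 RPKM in MUT and 19.5 RPKM in HET retinas, and endothelium genes to 30.0 RPKM in MUT and 23.3 RPKM in HET retinas. The one measured muscle gene was at 1.09 RPKM in KI and 1.12 RPKM in MUT retinas. Immediate early and heat shock genes summed to 47.8 RPKM in KI and 163 RPKM in MUT retinas, with 7 of 8 called lower, and to 166 RPKM in MUT and 151 RPKM in HET retinas, with 1 of 8 called lower. Kcnj13, although known from pigment epithelium, summed to 4.39 RPKM in KI and 4.66 RPKM in MUT retinas, with its overlap with Gigyf2 as stated. That sum joins transcripts of opposite sign: the most abundant one was at 2.82 RPKM in KI and 1.19 RPKM in MUT retinas, and the other two were lower in KI retinas, none of them called. The part of these tissues in the channel values was not tested. Sample titles hold one leading number in KI and a different one in MUT and HET. Its meaning is not stated, and whatever it marks cannot be told apart from the knock-in label.

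Set beside each other, the tables give 3 levels for the genes that are in both, with the MUT samples shared. Each table has its own normalization. For 5047 genes listed with 1 transcript in both, the MUT value of the first table was higher by a median of 0.03 on the log2 scale, and for the 23 such channel genes this difference ranged from -0.50 (Cacna1g) to 0.05. Scn3a was at 1.43 RPKM in KI retinas, at 1.64 and 1.67 RPKM in MUT retinas, and at 2.99 RPKM in HET retinas. The KI level was thus not above the MUT level (log2 ratio -0.20; p = 0.344 in the authors' deposited table). Kcnn1 was at 4.13 RPKM in KI retinas, 4.06 and 4.2 RPKM in MUT retinas and 5.89 RPKM in HET retinas. For both genes the KI value lay near or below the MUT values. The main Kcnd3 transcript was at 2.97 RPKM in KI retinas, 2.44 and 2.49 RPKM in MUT retinas and 5.14 RPKM in HET retinas. Kcnk10 was at 1.08 RPKM in KI retinas, 0.604 and 0.615 RPKM in MUT retinas and 1.08 RPKM in HET retinas. Both MUT values were under the lowest levels of the higher group (0.906 and 1.04 RPKM). Kcnk10 is thus listed through its HET value in the first table and its KI value in the second. At that MUT level a gene could be in both tables only with higher HET and KI values. The same held for Kcnmb2 and Cacna1g, whose MUT values were also under both levels. No test of KI against HET is in the files used here. The other 6 genes were in the first table only (Cacna1h, Cacna2d3, Kcnh8, Kcnip1, Kcnrg and Scn2b), so that the KI level of Kcnh8 is not known here.

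Of 20 measured genes for proteins that anchor or modulate channels, 2 were called lower in MUT retinas and none higher, against 1.09% and 0.245% of all genes, with a median log2 ratio of -0.23. Nfasc, the neurofascin that clusters sodium channels at axon initial segments, fell to 7.94 RPKM in MUT, against 19.1 RPKM in HET retinas (log2 ratio -1.27). Cntn2, an axonal adhesion molecule linked to potassium channel clustering, fell to 9.87 RPKM in MUT, against 22.9 RPKM in HET retinas (log2 ratio -1.22; for both p = 5e-05, q = 0.0109 in the authors' deposited table). The ankyrin Ank3, which holds channels at the initial segment, was at 54.5 RPKM in MUT and 47.4 RPKM in HET retinas and was not called. None of 13 genes of sodium pump, cotransport and calcium clearance was called (median 0.07). The 14 chloride channel genes (median -0.24), the 8 other voltage-sensing and leak channels (median -0.06) and the 14 TRP and calcium release genes (median 0.18) had no call in MUT against HET retinas. Of the chloride channel genes 13 had lower sums.

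In KI against MUT retinas the only call in these 5 lists was Trpm1, at 20.1 RPKM in KI and 5.15 RPKM in MUT retinas (log2 ratio 1.97; p = 5e-05, q = 0.0104 in the authors' deposited table), a channel also known from melanocytes and pigment epithelium. Medians of the lists lay between -0.06 (TRP and calcium release) and 0.30 (other voltage-sensing and leak channels). Hcn4, a channel opened by hyperpolarisation, was at 3.84 RPKM in KI and 2.50 RPKM in MUT retinas (p = 0.00185, q = 0.134 in the authors' deposited table). Nfasc and Cntn2 were not called in this comparison.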

How the data were processed

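Per the submitters' processing notes, Bowtie2, Cufflinks and Cuffdiff were used on mm10; their versions and the treatment of strand were not found in the labels or headers. The authors deposited 2 tables of RPKM, one value per transcript and group, each pooling 3 samples. The p-value and q-value per transcript are the authors' deposited ones; the q-values equalled the Benjamini-Hochberg adjustment over each whole table to within 5.26e-07.

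From these, RPKM was summed per gene symbol, and log2 ratios were taken without a pseudocount where both groups were above 0. Rows with a date (57 and 55) or no symbol (116 and 117) were left out of gene counts. A gene was called where any transcript had a q of 0.05 or less. Gene positions came from GENCODE M21, which matched all 40 symbols, and promoters from RefSeq. The adjustment and the calling were tested on simulated data. Python 3.11.15 with pandas 2.3.3 was used.

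Members and lists were chosen with earlier results of these data known. The named genes were members with a call, the 2 most abundant of each role and, per comparison, the 6 largest falls and 4 largest rises with at least 1 RPKM in a group; of other lists, called genes. Kcna3, Cacnb2, Kcnip1, Ank3, Hcn4, Pax6, Xist, Eif2s3y, Kdm5d, Ddx3y and Uty fall outside that rule and were chosen after their values were seen. The alternatives were other call thresholds, pseudocounts, single transcripts and narrower gene sets. The gene carried by the knock-in allele and some other single genes are not reported here.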

Additional observations from a re-analysis of the deposited data

How the results depend on the processing

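In MUT against HET retinas there were also 2 lower calls at a q of 0.10 (1.38% of all genes), with transcripts of at least 1 RPKM only, and where the gene's sum had to move by 1.2-fold or more. At an unadjusted p of 0.01 or less there were 4 (Cacna2d3, Kcnd3, Kcnh8 and Scn3a; 3.12% of all genes). In KI against MUT retinas 1 lower call (Kcnc2) appeared at a q of 0.10 and at a p of 0.01 (2.94% of channel genes, against 0.951% and 2.35% of all genes); higher calls stayed at 0 under these rules in both comparisons.

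The median log2 ratio of channel genes in MUT against HET retinas, -0.17, rests on which genes are counted. It was -0.014 over the genes listed in both tables and 0.021 without the 3 symbols that encode no channel subunit, an alternative chosen after seeing the data. In KI against MUT retinas the median of -0.04 became -0.19 with voltage-gated and calcium-activated channels only, also chosen after seeing the data. The causes were not tested. Other alternatives moved the medians by less than 0.1. With the most abundant transcript in place of the sum, 5 of 66 named ratios changed sign (Cacna2d2, Cacnb1 and Kcnh2 in MUT against HET, Kcnh2 and Kcnj13 in KI against MUT). Pseudocounts of 0.1 and 1 RPKM changed no sign. No paired analysis was possible because the files hold one pooled value per group, and for the same reason leaving out a replicate could not be run. Depth per sample is unknown, and 80% of the channel genes are under 5 RPKM in the MUT against HET table.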
